A study of Mus musculus with 24 samples.

Results

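*Csf1*, *Il34*, *Kitl*, *Csf1r*, *Csf2ra*, *Csf2rb*, *Csf3r*, *Flt3* and *Kit* are 3 ligands and 6 receptor genes through which stromal and endothelial cells sustain macrophages and other blood cells. They were chosen by symbol as a ligand and receptor axis and not by a cut on their values, though earlier results of these data were known. All 9 had 1 entry in each of the 4 count tables, among 48574 distinct symbols. RNA-seq counts were available for 24 libraries of mice labelled C57BL/6 in 8 groups of 3. Liver macrophages (CD45+Ly6C-F4/80+CD64+) and endothelial cells (ECs, CD45-CD31+) were sorted from mice labelled Bmp9/10-HSC-KO and from control mice at 8 to 10 weeks, and whole livers of such mice were taken at 12 weeks. In these HSC-KO mice floxed alleles of *Gdf2*, which encodes BMP9, and of *Bmp10* were deleted with LratCre, which acts in hepatic stellate cells. A second pair of macrophage groups, also at 8 to 10 weeks, came from mice labelled Smad4FF and from Smad4FF cKO mice, in which Vav1Cre deletes floxed Smad4 throughout the hematopoietic lineage and not in macrophages alone. The labels do not spell out which alleles the control mice of the HSC-KO sets carried. By the label codes, which appear to name mice, 3 codes (1 control and 2 HSC-KO) were given to an EC library as well as a macrophage library.

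Libraries held 60911527 to 110879155 counts. In livers, *Gdf2* was at 18.4, 9.38 and 22.5 CPM (counts scaled to library size with TMM factors) in controls and at 3.85, 2.12 and 2.63 CPM in HSC-KO mice. Smad4 in macrophages was at 40.1, 35.3 and 42.8 CPM in Smad4FF mice and at 17.2, 12.6 and 15.4 CPM in Smad4FF cKO mice, so a part of its counts remained. All 12 endothelial markers were detected in all 6 EC libraries. The 8 Kupffer cell markers were all detected in the 12 macrophage libraries, but their summed level was 27754 to 31514 CPM in control macrophages and 1132 to 1227 CPM in HSC-KO macrophages.

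CSF1 and IL-34 both bind the receptor tyrosine kinase CSF1R, on which tissue macrophages, Kupffer cells among them, depend for survival. KIT ligand (stem cell factor, encoded by *Kitl*) signals through KIT, a related kinase known from hematopoietic progenitors, mast cells and liver sinusoidal ECs, and FLT3 is the kinase of dendritic cell precursors. CSF2RA and the common beta chain CSF2RB form the GM-CSF receptor, the beta chain also serving IL-3 and IL-5, and CSF3R is the G-CSF receptor of the granulocyte lineage.

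Most of the genes that passed the test did so in ECs and livers of HSC-KO mice. In HSC-KO ECs *Kitl*, *Csf2rb* and *Csf3r* were higher and *Kit* and *Csf1r* lower, and in HSC-KO livers *Kitl* was higher while *Csf1r*, *Csf2rb*, *Csf3r* and *Kit* were lower. In HSC-KO macrophages *Csf1r* and *Csf2rb* were lower, and in Smad4FF cKO macrophages *Csf2rb* was lower. The ligands of CSF1R, *Csf1* and *Il34*, did not pass the test in any of the 4 comparisons of knockout and control. By edgeR's quasi-likelihood test with Benjamini-Hochberg (BH) adjustment over all genes tested, 2 of 9 genes passed an adjusted p of 0.05 in HSC-KO macrophages, both lower, where 19.2% of all 16337 genes passed (9.29% higher and 9.87% lower). With an absolute log2 fold change above 1 also asked for, 1 of 9 was called there, against 11.7% of all genes. In Smad4FF cKO macrophages 1 of 9 passed, against 7.74% of all genes (3.71% higher and 4.03% lower). In ECs 3 of the 8 genes tested were higher and 2 lower, against 20.1% of all genes (10.3% higher and 9.77% lower), and *Flt3* was too low to be tested. In livers 1 of 9 was higher and 4 lower, against 2.83% of all genes (1.24% higher and 1.59% lower). The knockout and control libraries did not overlap for 2 genes in HSC-KO macrophages, 1 in Smad4FF cKO macrophages, 5 in ECs and 7 in livers, where 40.3%, 29.4%, 40.4% and 19.7% of all genes tested did not overlap. Each comparison rested on 3 libraries per group, for which an exact permutation test of a single gene cannot give a p below 0.1, so p-values come only from the fit across all genes.

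**Figure D1:**
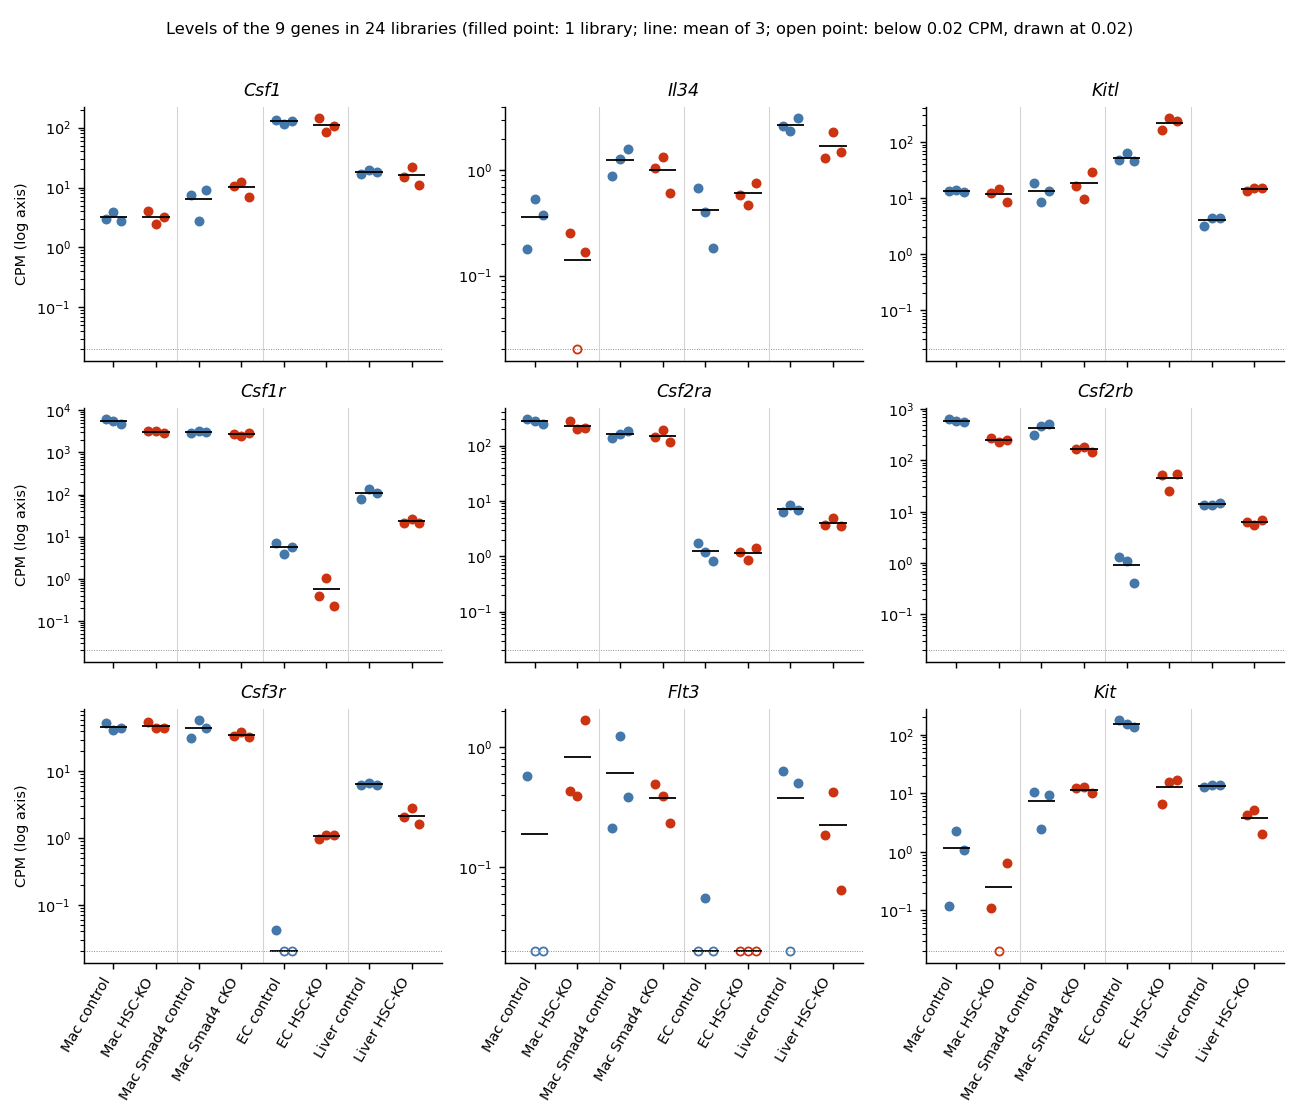
Level of each of the 9 genes (CPM on a scale common to all 24 libraries, log axis) in the 8 groups; each point is a library, the line is the mean of 3, blue marks controls and red knockouts, and open points lie below 0.02 CPM. *Csf1r*, *Csf2ra*, *Csf2rb* and *Csf3r* were highest in macrophages, *Csf1* and *Kitl* in ECs, *Kit* in control ECs and *Il34* in livers.

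**Figure D2:**
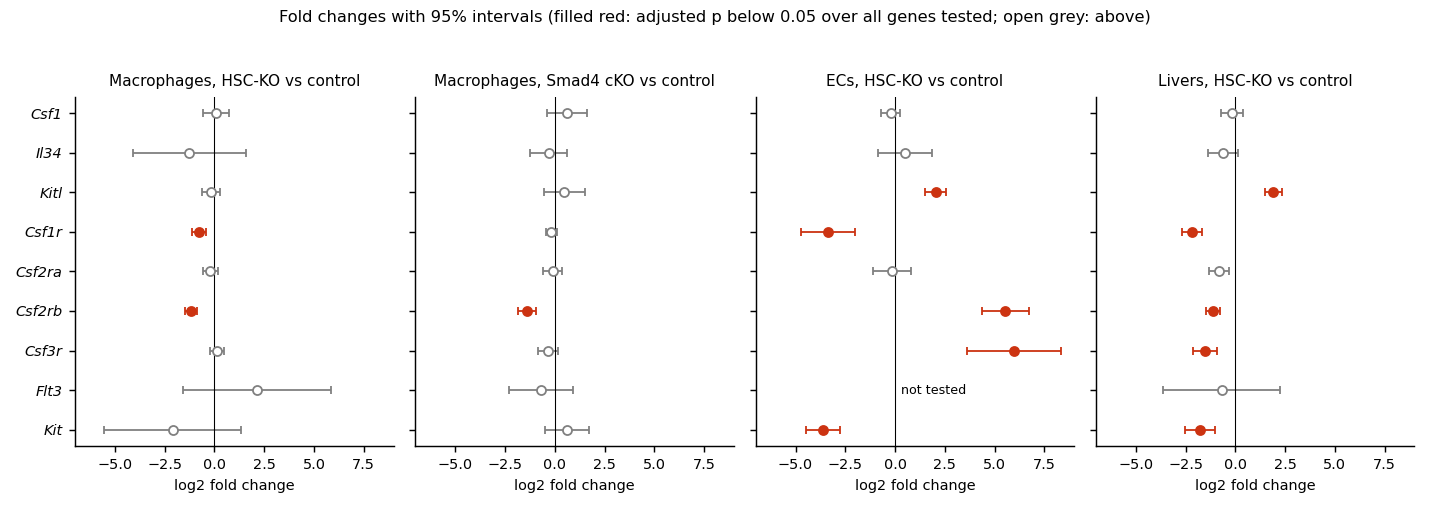
Log2 fold change of each gene (knockout over control, with its 95% interval) in the 4 comparisons; filled red points passed an adjusted p of 0.05 over all genes tested and open grey points did not. *Kitl* lies to the right of 0 and *Kit* and *Csf1r* to the left in both ECs and livers, whereas *Csf2rb* and *Csf3r* lie to the right in ECs and to the left in livers.

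In control mice the receptors *Csf1r*, *Csf2ra*, *Csf2rb* and *Csf3r* were higher in sorted macrophages, and the ligands *Csf1* and *Kitl*, together with the receptor *Kit*, were higher in sorted ECs. Compared between control macrophages and control ECs, 7 of the 8 genes tested differed by the quasi-likelihood test of edgeR with BH adjustment, where 49.2% of all genes did (24.7% higher in macrophages and 24.5% lower). *Csf1r*, *Csf2ra*, *Csf2rb* and *Csf3r* were higher in macrophages, with log2 fold changes of 9.87, 7.70, 9.23 and 11.35. *Csf1*, *Kit* and *Kitl* were higher in ECs, with log2 fold changes of -5.36, -7.11 and -2.04 for macrophages over ECs. *Il34* was low in both, at 0.356 ± 0.177 CPM in macrophages and 0.433 ± 0.253 CPM in ECs (SD, n = 3 each). Divided by exon length, the order in control macrophages was *Csf1r* (955 CPM per kb), *Csf2ra* (95.2), *Csf2rb* (81.1), *Csf3r* (12.9), *Kitl* (2.28) and *Csf1* (0.609), and only *Csf2ra* and *Csf2rb* overlapped between libraries. In control ECs the order by CPM per kb was *Csf1* (24), *Kit* (17.2), *Kitl* (8.91) and *Csf1r* (0.975), with no overlap between neighbours. In control livers *Csf1r* led at 18.4 CPM per kb, followed by *Csf1* at 3.48 CPM per kb.

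*Csf1* (chr3:107741048-107760469, minus strand; here and below positions are those of GENCODE vM21 for GRCm38), the main circulating ligand of CSF1R, was at 158, 134 and 153 CPM in control ECs and at 162, 95.6 and 124 CPM in HSC-KO ECs. The 2 groups overlapped, and the log2 fold change was -0.22 (95% interval -0.68 to 0.24). In livers it was at 13.9, 16.9 and 15.3 CPM in controls and at 13.2, 18.8 and 9.60 CPM in HSC-KO mice, again with overlap and a log2 fold change of -0.15 (-0.70 to 0.40). Changes of *Csf1* within these intervals are not resolved with 3 libraries per group. On the common scale ECs of both genotypes lay above all other groups, at 82.9 to 143 CPM against at most 21.6 CPM. Next in order came control and HSC-KO livers, which did not differ beyond their spread.

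*Il34* (chr8:110741829-110805924, minus strand), the second ligand of CSF1R, was highest in control livers. It was at 2.17, 2.01 and 2.62 CPM there and at 1.13, 2.00 and 1.30 CPM in HSC-KO livers. Every HSC-KO liver was below every control liver, in 1 case by less than 0.01 CPM. The log2 fold change of -0.62 (-1.35 to 0.11) did not pass the test (adjusted p = 0.49, edgeR's quasi-likelihood test, BH). Exons of *Il34* overlap those of *Gm15894* and *Gm15895* on the other strand, and whether strand was used in counting is not given in the sources used here. Per kb of exon, *Csf1* made up 98.1 to 99.6% of the summed *Csf1* and *Il34* level in EC libraries and 68.5 to 81.3% in livers.

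*Csf1r* (chr18:61100598-61132149, plus strand) was the highest of the 9 genes in macrophages. In control macrophages it was at 6045, 5562 and 4639 CPM and in HSC-KO macrophages at 3293, 3195 and 3048 CPM. The groups did not overlap, and *Csf1r* was 1.70-fold lower in HSC-KO macrophages (log2 fold change -0.77, SE 0.15, adjusted p = 0.012, edgeR's quasi-likelihood test, BH). Without control replicate 2 the adjusted p was 0.051. In Smad4FF macrophages it was at 2881, 3231 and 3071 CPM and in Smad4FF cKO macrophages at 2779, 2453 and 2942 CPM, which overlapped, with a log2 fold change of -0.17 (-0.45 to 0.11). The difference between these fold changes, tested as an interaction over 12 libraries, was -0.55 (SE 0.18) and did not pass the edgeR quasi-likelihood test (BH adjusted p = 0.15, unadjusted p = 0.011), whereas DESeq2 gave -0.62 with an adjusted p of 0.016. In that interaction 0 of 9 genes passed, 1 had an unadjusted p below 0.05 and 1 passed in DESeq2, and 3.02% of all genes passed. On the common scale the control macrophages of the HSC-KO set stood above the other 3 macrophage groups, and these 3 followed each other with overlap at 3114 ± 176, 3036 ± 202 and 2687 ± 234 CPM (SD, n = 3). The Smad4FF libraries, also controls, thus lay with the knockouts, and what set the 2 control groups apart was not tested. Among macrophage markers, 7 of the 8 Kupffer cell markers passed as lower in HSC-KO and in Smad4FF cKO macrophages. The 6 markers of monocytes and monocyte-derived cells summed to 132 to 202 CPM in controls and 1470 to 2197 CPM in HSC-KO macrophages, and to 144 to 179 CPM in Smad4FF and 694 to 977 CPM in Smad4FF cKO macrophages. In HSC-KO macrophages 4 of these 6 markers passed as higher and 1, *Plac8*, as lower. In Smad4FF cKO macrophages only *Cx3cr1* passed as higher (means rising from 10.5 to 742 CPM), *Plac8* again as lower (from 132 to 8.13 CPM), and the other 4 did not pass, so that *Cx3cr1* gave nearly all of the higher sum. The part of a different mix of macrophages in the *Csf1r* and *Csf2rb* values was not tested.

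In whole livers *Csf1r* was at 64.1, 113 and 91.0 CPM in controls and at 18.7, 22.7 and 18.2 CPM in HSC-KO mice. It was 4.49-fold lower without overlap (log2 fold change -2.17, SE 0.22, adjusted p = 0.0031, edgeR's quasi-likelihood test, BH). In bulk tissue fewer macrophages and less *Csf1r* RNA per macrophage cannot be told apart. The summed level of 7 Kupffer cell markers (the 8 without *Clec1b*, which in control ECs was at 37.6% of its level in control macrophages) moved with it. On the common scale the sum went from 301 to 516 CPM in control livers to 9.66 to 15.4 CPM in HSC-KO livers, and its part in the result was not tested. Relative to control macrophages, *Csf1r* was at 1.93% in control livers and 0.416% in HSC-KO livers, and the median of the 8 Kupffer cell markers was at 1.48% and 0.0307%. In HSC-KO macrophages that median was itself at 1.75%, so the fall of these markers in livers does not measure the amount of macrophage RNA. The least lowered of the 8 there, *Fcgr1* (101%) and *Adgre1* (65.3%), were at 1.42% and 2.93% in control livers and at 0.625% and 0.862% in HSC-KO livers.

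In sorted ECs *Csf1r* was low, at 8.45, 4.56 and 6.79 CPM in controls and at 0.435, 1.23 and 0.269 CPM in HSC-KO mice. It was 10.3-fold lower (log2 fold change -3.36, SE 0.59, adjusted p = 0.0067, edgeR's quasi-likelihood test, BH), and the groups did not overlap. The level in control ECs was 0.102% of that in control macrophages, and the median Kupffer cell marker was at 0.0692% of its macrophage level in the same libraries. The 7 markers summed to 19.5 to 21.4 CPM in control ECs and to at most 0.508 CPM in HSC-KO ECs on the common scale. Their sum was also lower within sorted HSC-KO macrophages (1071 to 1166 CPM, against 29472 to 30942 CPM in controls), so it does not measure the amount of macrophage RNA. The part of macrophage RNA in the EC value was not tested. The fold change in ECs was larger in size than in macrophages, with an interaction of 2.61 (SE 0.60, adjusted p = 0.014, edgeR's quasi-likelihood test, BH). It was 1 of 4 of the 9 genes to pass that test of a different response in macrophages and ECs, against 15.3% of all genes. *Csf1r* exons also overlap those of *Hmgxb3* on the other strand.

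**Figure D3:**
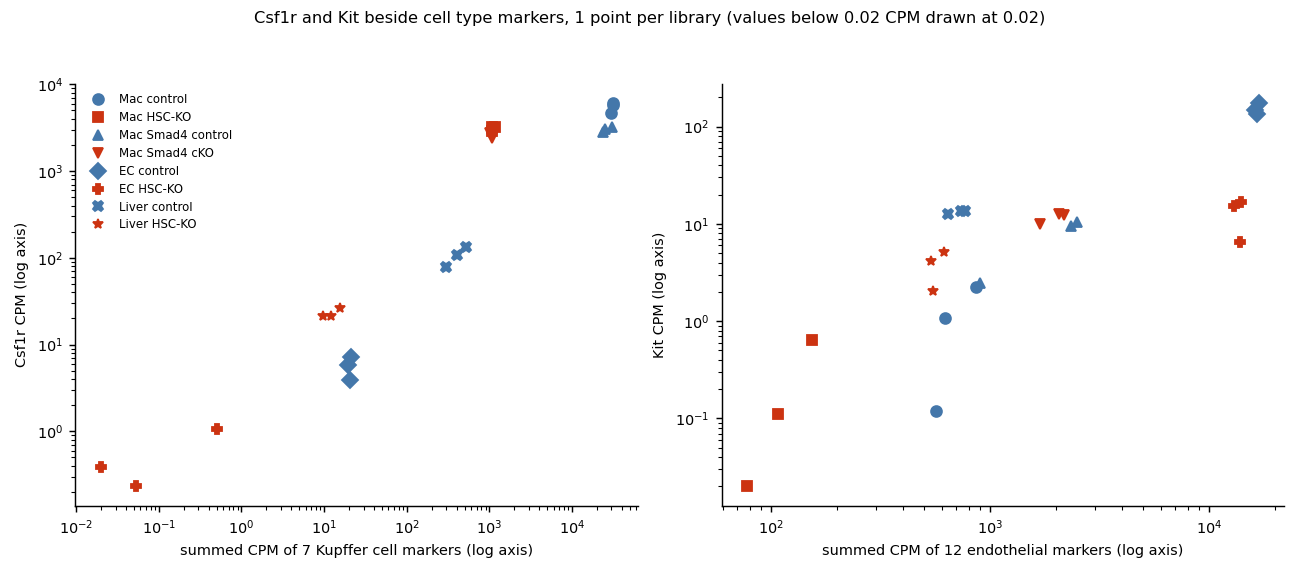
Left, *Csf1r* against the summed level of 7 Kupffer cell markers; right, *Kit* against the summed level of 12 endothelial markers (all in CPM on the common scale, log axes, 1 point per library). In livers and ECs both *Csf1r* and the Kupffer cell markers were lower in every HSC-KO library than in every control, while *Kit* in HSC-KO ECs lay far below control ECs at endothelial sums of 13004 CPM or more.

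*Kitl* and *Kit* moved in opposite directions in ECs and in livers. *Kitl* (chr10:100015630-100100416, plus strand), the ligand, was at 56.4, 74.3 and 54.6 CPM in control ECs and at 182, 306 and 278 CPM in HSC-KO ECs. All HSC-KO libraries lay above all controls, 4.13-fold on the fitted scale (log2 fold change 2.05, SE 0.23, adjusted p = 0.00099, edgeR's quasi-likelihood test, BH). In livers *Kitl* was at 2.62, 3.77 and 3.69 CPM in controls and at 11.8, 13.1 and 13.1 CPM in HSC-KO mice, 3.78-fold higher without overlap (log2 fold change 1.92, SE 0.19, adjusted p = 0.003, edgeR's quasi-likelihood test, BH). The 8 stellate cell markers summed to 271 to 362 CPM in control livers and to 415 to 494 CPM in HSC-KO livers, where 1 of the 8, *Dcn*, passed as higher, and their part in the *Kitl* value was not tested. In macrophages *Kitl* was at 13.2 ± 0.39 CPM in controls and 11.9 ± 2.65 CPM in HSC-KO mice (SD, n = 3), and its log2 fold change of -0.15 (-0.61 to 0.30) did not pass the test. The interaction between macrophages and ECs was -2.19 (SE 0.31, adjusted p = 0.00076, edgeR's quasi-likelihood test, BH). On the common scale HSC-KO ECs (161 to 265 CPM) stood above control ECs (46.3 to 63.3 CPM), which stood above all other groups.

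*Kit* (chr5:75574916-75656722, plus strand), the receptor, was at 204, 176 and 160 CPM in control ECs and at 7.34, 17.7 and 19.3 CPM in HSC-KO ECs. It was 12.2-fold lower, with a wide gap between the groups (log2 fold change -3.61, SE 0.36, adjusted p = 0.00062, edgeR's quasi-likelihood test, BH). The 12 endothelial markers summed to 16230 to 16818 CPM in control ECs and to 13004 to 13949 CPM in HSC-KO ECs on the common scale. Without TMM factors the groups overlapped, at 16502 to 19129 CPM in control ECs and 16116 to 19075 CPM in HSC-KO ECs. Single markers went both ways: of the 12, 2 passed as higher (*Emcn*, from 204 to 2432 CPM, and *Pecam1*, from 421 to 764 CPM), 4 passed as lower (*Eng*, *Ptprb*, *Tek* and *Kdr*) and 6 did not pass. Among these 6, *Stab2*, a scavenger receptor of sinusoidal ECs, was at 1995 CPM on average in control ECs and 342 CPM in HSC-KO ECs (adjusted p = 0.071, edgeR's quasi-likelihood test, BH). In livers *Kit* was at 10.4, 11.6 and 11.4 CPM in controls and at 3.63, 4.49 and 1.77 CPM in HSC-KO mice, 3.38-fold lower without overlap (log2 fold change -1.76, SE 0.32, adjusted p = 0.034, edgeR's quasi-likelihood test, BH). This liver call was lost when control replicate 1, 2 or 3 or HSC-KO replicate 1 was left out (adjusted p = 0.09 to 0.12). On the common scale the 12 endothelial markers summed to 640 to 769 CPM in control livers and to 537 to 615 CPM in HSC-KO livers. Of the 12, 4 passed as higher, 4 as lower and 4 did not pass, and their part in the liver value of *Kit* was not tested. None of the 7 mast cell or basophil markers had a count in any EC library, and these markers summed to at most 0.120 CPM in livers.

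In macrophage libraries *Kit* was at 0 to 2.20 CPM in the HSC-KO set and at 2.48 to 12.7 CPM in the Smad4 set. It did not pass the test in either, with log2 fold changes of -2.11 (-5.54 to 1.32) and 0.62 (-0.48 to 1.73). Across the Smad4 set the 12 endothelial markers summed to 898 to 2479 CPM on the common scale. Smad4FF replicate 2 had the lowest sum of that set, and with it the lowest *Kit* and the lowest *Csf1* (2.73 CPM, against 7.07 to 12.4 CPM in the other 5). What part endothelial RNA has in these values of *Kit* and *Csf1* was not tested. In the HSC-KO set the sum on the common scale was 565 to 858 CPM in controls and 77.8 to 154 CPM in HSC-KO macrophages. Of these sums *Cdh5* alone was at 250 CPM and 1.40 CPM on average. Within each of these 2 groups *Kit* was higher where the sum was higher, and its part in the *Kit* values was not tested.

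The promoters of *Kitl* and *Kit* are shown because the ligand and its receptor moved oppositely in the same libraries. They are RefSeq windows of 300 bases around the annotated start (GRCm38.p6, 5′ to 3′ along the gene), at chr10:100015571-100015870 and chr5:75574737-75575036, both on the plus strand. Capitals mark TATAAA in *Kitl* and GAGGAA, the core bound by PU.1, in *Kit*.
Kitl: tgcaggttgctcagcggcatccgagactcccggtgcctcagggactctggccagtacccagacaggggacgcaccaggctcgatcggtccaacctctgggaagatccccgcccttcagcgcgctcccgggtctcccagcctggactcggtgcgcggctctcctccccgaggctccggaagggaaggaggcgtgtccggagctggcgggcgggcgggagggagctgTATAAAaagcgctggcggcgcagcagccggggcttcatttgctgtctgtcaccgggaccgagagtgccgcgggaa
Kit: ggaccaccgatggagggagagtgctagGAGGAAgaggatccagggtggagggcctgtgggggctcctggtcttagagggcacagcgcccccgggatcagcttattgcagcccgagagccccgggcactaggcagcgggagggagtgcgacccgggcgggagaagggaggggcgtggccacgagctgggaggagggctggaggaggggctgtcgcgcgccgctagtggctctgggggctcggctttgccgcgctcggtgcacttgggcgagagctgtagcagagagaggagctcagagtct
TATAAA starts 25 bases before the start of *Kitl*, and 13.6% of 32851 RefSeq promoters of the same length hold it on either strand. GAGGAA lies 223 bases before the start of *Kit*, and 28.3% of promoters hold it. The GATA letters AGATAA or TGATAA (18.6% of promoters) and the SMAD letters GGCGCC (11.9%) and GTCTAGAC (0.213%) were not found in either window on either strand. With GC contents of 68.7% and 69.0%, both windows are rich in G and C. Neither held more than 1 of these motifs, so none overlapped another.

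*Csf2rb* (chr15:78325752-78353847, plus strand), the common beta chain, passed the test in all 4 comparisons of knockout and control, lower in 3 of them and higher in ECs. In macrophages of the HSC-KO set it was at 625, 567 and 547 CPM in controls and at 274, 232 and 262 CPM in HSC-KO mice. It was 2.26-fold lower without overlap (log2 fold change -1.18, SE 0.12, adjusted p = 0.00073, edgeR's quasi-likelihood test, BH). In the Smad4 set it was at 324, 475 and 515 CPM in Smad4FF mice and at 168, 187 and 147 CPM in Smad4FF cKO mice, 2.62-fold lower, again without overlap (log2 fold change -1.39, SE 0.19, adjusted p = 0.0056, edgeR's quasi-likelihood test, BH). The difference between the 2 fold changes was 0.26 (95% interval -0.25 to 0.77). In livers it was at 11.2, 11.7 and 12.7 CPM in controls and at 5.53, 4.83 and 5.99 CPM in HSC-KO mice, 2.18-fold lower without overlap (log2 fold change -1.12, SE 0.15, adjusted p = 0.011, edgeR's quasi-likelihood test, BH). That call was lost without control replicate 2 or 3 or HSC-KO replicate 1 (adjusted p = 0.06 to 0.067). The 8 Kupffer cell markers were lower in the same livers, with 7 of 8 passing. The 7 without *Clec1b* summed to 301 to 516 CPM in controls and to 9.66 to 15.4 CPM in HSC-KO mice on the common scale. Their sum was also lower within sorted HSC-KO macrophages, and their part in the *Csf2rb* value was not tested.

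In ECs *Csf2rb* was low in controls, at 1.5, 1.29 and 0.489 CPM, and reached 60.1, 30.0 and 63.9 CPM in HSC-KO mice. The log2 fold change was 5.55 (SE 0.51, adjusted p = 0.00039, edgeR's quasi-likelihood test, BH), the reverse of the direction in macrophages, and the interaction was -6.71 (SE 0.55, adjusted p = 3.1e-05, same test). On the common scale HSC-KO ECs, at 26 to 55.0 CPM, stood below all 12 macrophage libraries and above both liver groups. *Csf1r* and *Csf2ra* did not rise beside it: *Csf1r* fell, and *Csf2ra* was at 1.46 ± 0.53 and 1.33 ± 0.34 CPM (SD, n = 3). Of the 8 Kupffer cell markers, 1 to 3 had more than 3 counts in an HSC-KO EC library, whereas the 6 markers of monocytes and monocyte-derived cells summed to 10.1 to 12.1 CPM in control ECs and to 91.5 to 125 CPM in HSC-KO ECs, of which *Ly6c2* (66.8 to 82.6 CPM) and *Plac8* (20.3 to 42.0 CPM) gave nearly all. *Itgax* was at 0 in all 6 EC libraries and *Ccr2* at 0 to 0.120 CPM. Of the 6 progenitor markers, 4 had a count of 0 in each EC library. *Cd34*, on that list but named by the paper as a marker of continuous ECs, was at 18.2 to 31.7 CPM in control ECs and 622 to 1186 CPM in HSC-KO ECs. The part of cells other than ECs in the *Csf2rb* value was not tested.

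*Csf2rb* has a neighbour with shared stretches of sequence, *Csf2rb2* (chr15:78282507-78305721, minus strand), the beta chain used for IL-3 alone, and reads from those stretches could be split between the 2. Of all 50-base words in *Csf2rb* transcripts, 12.3% also occur in *Csf2rb2*, and of all 100-base words 4.63% do. *Csf2rb* took 83.1 to 89.1% of the counts of the pair in macrophages and 73.9 to 83.7% in livers. In ECs its share was 9.84 to 15.4% in controls and 57.7 to 74.1% in HSC-KO mice, so *Csf2rb2* was the higher of the pair in control ECs. *Csf2rb2* itself rose in HSC-KO ECs from 9.29, 7.10 and 4.48 CPM to 44.1, 10.5 and 27.6 CPM (log2 fold change 1.98, SE 0.50, adjusted p = 0.03, edgeR's quasi-likelihood test, BH). Summing the pair, an alternative chosen after the data were seen, gave a log2 fold change of 3.29 in ECs in place of 5.55 (adjusted p = 0.0018), and -1.15, -1.43 and -1.05 in HSC-KO macrophages, Smad4FF cKO macrophages and livers.

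**Figure D4:**
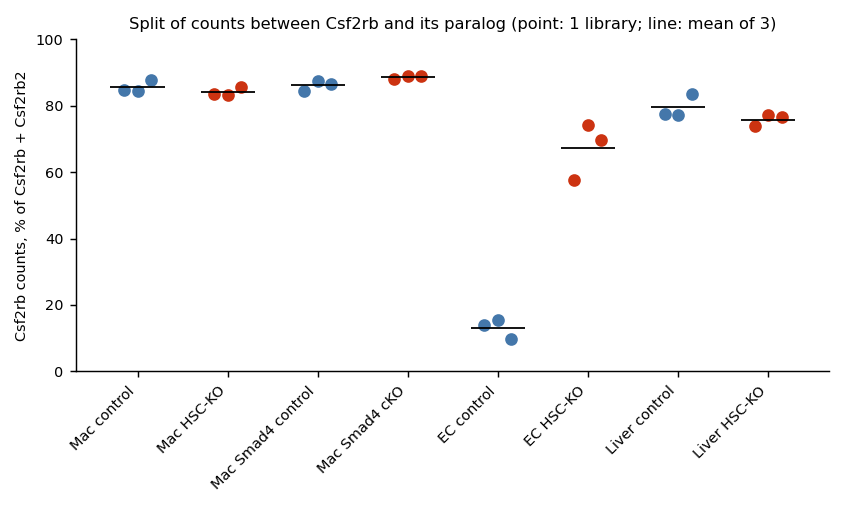
Share of *Csf2rb* in the summed counts of *Csf2rb* and its neighbour *Csf2rb2* (percent, 1 point per library, line at the mean of 3). The share was at or below 15.4% in control ECs and between 57.7 and 89.1% in every other group.

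*Csf2ra* (chr19:61223957-61228429, minus strand), the GM-CSF binding chain, did not pass the test in any comparison of knockout and control. In macrophages it was at 269 ± 29.6 CPM in controls and 233 ± 48.0 CPM in HSC-KO mice (SD, n = 3; log2 fold change -0.20, 95% interval -0.60 to 0.19). In livers it was at 5.26, 7.21 and 5.77 CPM in controls and at 3.14, 4.19 and 3.05 CPM in HSC-KO mice. These groups did not overlap, but the log2 fold change of -0.81 (SE 0.22) had an adjusted p of 0.13 by edgeR's quasi-likelihood test (BH), and of 0.028 by DESeq2. On the common scale both macrophage groups of the HSC-KO set (197 to 297 CPM) lay above those of the Smad4 set (115 to 189 CPM).

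*Csf3r* (chr4:126024550-126044440, plus strand), the G-CSF receptor, had 4, 0 and 0 counts in the 3 control EC libraries and 105, 92 and 105 counts in the HSC-KO ECs. The latter amount to 1.11, 1.28 and 1.28 CPM, and the fitted log2 fold change of 5.99 (SE 1.02, adjusted p = 0.006, edgeR's quasi-likelihood test, BH) rests on those 4 control counts. Without control replicate 1, which held them, the fitted value was 9.56. Of 8 neutrophil markers only *Ltf*, which encodes lactoferrin, had more than 3 counts in HSC-KO ECs, at 3.51 to 3.93 CPM, while *S100a8*, *S100a9*, *Ly6g* and *Retnlg* were at 0 in all 6 EC libraries. In livers *Csf3r* was at 5.11, 5.71 and 5.34 CPM in controls and at 1.78, 2.46 and 1.39 CPM in HSC-KO mice, 2.86-fold lower without overlap (log2 fold change -1.52, SE 0.26, adjusted p = 0.026, edgeR's quasi-likelihood test, BH). This call was lost without control replicate 1, 2 or 3 or HSC-KO replicate 1 (adjusted p = 0.072 to 0.12). The 8 neutrophil markers moved with it in livers, summing to 2.22 to 6.93 CPM in controls and to 1.08 to 1.87 CPM in HSC-KO mice, though none of the 5 tested passed, and their part was not tested. In macrophages of the HSC-KO set it was at 45.9 ± 6.08 CPM in controls and 49.3 ± 6.73 CPM in HSC-KO mice (SD, n = 3), with a log2 fold change of 0.11 (-0.24 to 0.45). The interaction of macrophages and ECs was -5.83 (SE 0.60, adjusted p = 0.00011, edgeR's quasi-likelihood test, BH), and -9.41 without control EC replicate 1.

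The promoter of *Csf3r* is shown because the gene went from almost no counts to a low level in ECs; it is the RefSeq window of 300 bases at chr4:126024409-126024708 (GRCm38.p6, plus strand), with GAGGAA in capitals.
Csf3r: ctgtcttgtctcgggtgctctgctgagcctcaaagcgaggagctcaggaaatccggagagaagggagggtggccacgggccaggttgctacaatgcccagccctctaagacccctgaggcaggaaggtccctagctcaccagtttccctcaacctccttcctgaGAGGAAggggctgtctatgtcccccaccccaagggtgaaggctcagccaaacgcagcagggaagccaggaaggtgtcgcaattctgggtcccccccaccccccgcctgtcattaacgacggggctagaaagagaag
GAGGAA lies 86 bases before the start, and the GATA, SMAD and TATAAA letters given above were not found in the window.

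*Flt3* (chr5:147330741-147400489, minus strand) was low throughout, at or below 1.74 CPM in every library. It had 4 counts in 1 control EC library and 0 in the other 5 EC libraries. A count of 0 in HSC-KO ECs allows up to 3 counts, or 0.0341 to 0.0450 CPM without TMM factors. In macrophages of the HSC-KO set *Flt3* was at 0.567, 0 and 0 CPM in controls and 0.444, 0.388 and 1.74 CPM in HSC-KO mice. These groups overlapped, and the log2 fold change of 2.15 (-1.58 to 5.88) did not pass the test. Without control replicate 1, the only control with counts, it passed (adjusted p = 0.022, edgeR's quasi-likelihood test, BH). The 7 dendritic cell markers summed to 7.31 to 13.6 CPM in these controls and to 17.9 to 44.97 CPM in HSC-KO macrophages, with 2 of 7 passing as higher and the highest sum in HSC-KO replicate 3, which also had the highest *Flt3*. Their part in the *Flt3* values was not tested.

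Across the 24 libraries, the genes most like each of the 5 members that passed the test in at least 1 comparison of knockout and control were ranked by Pearson's r of log2 CPM among 9826 genes; the points share libraries and fall into cell populations, so the values are descriptions. *Csf1r* was most like *Cd86* (r = 0.994), *C1qa* (0.993) and *Cd48* (0.992). *Csf2rb* was most like *Evl* (0.976), *Pltp* (0.974) and *Pyhin1* (0.969). *Csf3r* was most like *Nfam1* (0.968), *Tnfrsf1b* (0.964) and *Itgb5* (0.963). *Kit* was most like *Pdlim1* (0.950), *Ntn4* (0.949) and *Clec14a* (0.947), and *Kitl* most like *Kctd12b* (0.946), *Piezo1* (0.936) and *Oaz2* (0.927).

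Of 40 other genes of the pathway (6 ligands, 8 receptors and 26 signalling genes), 32 were tested in HSC-KO macrophages, where 5 were higher (9.29% of all genes) and 6 lower (9.87%), with a median log2 fold change of 0.14 against 0.04 over all genes. The largest changes were of *Pik3cg*, a kinase of the PI3K family (log2 fold change 2.04), the adaptor *Dok2* (-1.75), the cytokine signalling inhibitor *Socs2* (-1.72), the Src family kinase *Fgr* (-1.57) and the ERK phosphatase *Dusp6* (1.5). In Smad4FF cKO macrophages 4 of 32 were higher (3.71% of all genes) and 2 lower (4.03%), with *Csf2rb2* at -1.70 and *Dusp6* at 1.01. In ECs 6 of 31 were higher (10.3% of all genes) and 9 lower (9.77%), with a median of -0.55 against 0.00 over all genes. *Plcg2*, a phospholipase downstream of several receptors, had a log2 fold change of 1.84 there, *Socs2* of 1.38, *Spred1*, an inhibitor of RAS signalling, of 1.09, and *Cish*, a target and inhibitor of STAT5 signalling, of -1.41. In livers 1 of 33 was higher (1.24% of all genes) and 2 lower (1.59%), with *Dok2* at -1.65. All counts are of an adjusted p below 0.05 by the quasi-likelihood test of edgeR with BH adjustment over all genes.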

How the data were processed

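The authors aligned the reads with HISAT2 to mm10 (GRCm38) and counted them per gene with featureCounts, per the labels and the study's methods. Versions, annotation release and strand use are not given in the sources used here. The deposited values are raw counts in 4 tables of 48820 entries, and the study's methods call the 3 libraries of a group independent biological replicates. The members and lists were chosen with earlier results of these data known.

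For each comparison genes were kept by filterByExpr (count at least 10, total at least 15), library sizes were adjusted by TMM, and genes were tested with the quasi-likelihood test of edgeR 4.0.16 in R 4.3.3, with BH adjustment over all genes tested. Interactions used 12 libraries. Levels across populations used TMM factors of all 24 libraries, in which entries sharing a symbol were summed. SE is the log2 fold change over the square root of F. All 9 members are named; other pathway genes are named where the adjusted p was below 0.05, the absolute log2 fold change above 1 and the mean log2 CPM at least 1, at most 5 per comparison; 1 gene that met this rule is not reported here. DESeq2 1.42.0, limma 3.58.1 (mouse as a block), other scalings and filters, a replicate block, *Xist* as a covariate and leaving out each library were alternatives. Limits from a count of 0 cover counting error only. On simulated counts with 200 genes changed 4-fold, the test recovered 79% in HSC-KO macrophages (15735 genes), 81% in Smad4FF cKO macrophages (17009), 74.5% in ECs (15519), 84% in livers (16553), 65.5% in control macrophages against ECs (15763), 63% in the interaction of the macrophage sets (17688) and 55.5% in that of macrophages and ECs (17664). Unchanged genes called numbered 3 to 14 per comparison. The changed genes were drawn only from genes above a minimum mean count, so these shares do not cover members with few counts.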

Additional observations from a re-analysis of the deposited data

Results flagged for a closer look

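The fold changes of *Csf1r*, *Csf2rb*, *Csf3r* and *Kitl* differed between macrophage and EC libraries of HSC-KO mice, by a test of the difference itself. The interaction (log2 fold change in macrophages minus that in ECs, 12 libraries, edgeR's quasi-likelihood test, BH adjustment) was 2.61 for *Csf1r* (adjusted p = 0.014), -6.71 for *Csf2rb* (3.1e-05), -5.83 for *Csf3r* (0.00011) and -2.19 for *Kitl* (0.00076). In control ECs *Csf1r* was at 0.102% of its macrophage level and the median Kupffer cell marker at 0.0692%, and the part of macrophage RNA in the EC value was not tested. These 4 of 9 genes compare with 15.3% of all genes. The ECs and livers moved in opposite directions for 2 genes with no overlap between the groups in either. *Csf2rb* had a log2 fold change of 5.55 in ECs and -1.12 in livers, and *Csf3r* of 5.99 and -1.52. Summed with its neighbour *Csf2rb2*, *Csf2rb* had 3.29 in ECs and -1.05 in livers. The EC values of *Csf3r* rest on 4 counts in control replicate 1, without which its fold change in ECs was 9.56 and its interaction -9.41. *Csf2rb* also differed in direction between ECs and Smad4FF cKO macrophages (5.55 and -1.39). The differences between ECs and livers and between ECs and Smad4FF cKO macrophages were not tested.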

How the results depend on the processing

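None of the calls of the 9 genes reversed under any alternative that was run; the 28 reversals were all of genes that had not passed. The number of genes that passed in livers, 5, was 3 with the replicate block and 2 to 5 when 1 library was left out, and in HSC-KO macrophages, 2, it was 1 with an absolute log2 fold change above 1 also asked for and 1 to 3 when 1 library was left out. The interaction of HSC-KO and Smad4FF cKO macrophages had 0 genes passing, 1 at an unadjusted p below 0.05, 1 with DESeq2 and 0 to 1 when 1 library was left out. Over all genes, DESeq2 called 2311 in Smad4FF cKO macrophages (1356 in edgeR), 1095 in livers (484) and 1296 in that interaction (551), and that size threshold left 1904 of 3129 in HSC-KO macrophages. When 1 library was left out, the calls over all genes ranged from 1953 to 2881 in HSC-KO macrophages, 622 to 1238 in Smad4FF cKO macrophages, 2033 to 3331 in ECs, 193 to 515 in livers and 246 to 611 in that interaction. The cause was not tested, but fewer samples were fitted.

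The replicate numbers were not treated as pairs in the main fits. The correlation of same-numbered deviations did not exceed 0.1 in every pair of any comparison. With 3 libraries per group this cannot exclude a pairing. In ECs each number correlated best with its own, at 0.103, 0.117 and 0.0334. With the replicate block, calls over all genes were 799 in Smad4FF cKO macrophages, 296 in livers and 345 in the interaction of the macrophage sets, and in livers *Csf3r* and *Kit* had adjusted p of 0.054 and 0.057.

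Reversals of genes that had not passed: with library size alone, *Csf2ra* in Smad4FF cKO macrophages was at 0.044, *Csf1* in ECs at 0.066 and *Csf2ra* in ECs at 0.14; with the *Xist* covariate, *Csf1* in livers was at 0.080 and *Csf2ra* in the interaction of the macrophage sets at 0.12. When 1 library was left out, log2 fold changes ranged in HSC-KO macrophages from -0.12 to 0.25 for *Csf1*, -0.0083 to 0.21 for *Csf3r* and -0.30 to 0.013 for *Kitl*. In Smad4FF cKO macrophages they ranged from -0.32 to 0.042 for *Csf2ra*, -1.11 to 0.32 for *Flt3* and -0.019 to 0.79 for *Kitl*. In ECs they ranged from -0.37 to 0.16 for *Csf2ra* and in livers from -0.43 to 0.059 for *Csf1*. The interactions ranged from -0.22 to 0.16 (macrophage sets) and -0.37 to 0.18 (macrophages and ECs) for *Csf2ra* and -0.70 to 2.52 for *Kit*, and control macrophages over control ECs from -0.73 to 0.22 for *Il34*. The mouse block could not be fitted for control macrophages and ECs, which share 1 mouse. *Xist*, used as a gauge of sex, spanned 13.9, 12.9 and 12.1 in log2 CPM within the HSC-KO comparisons of macrophages, ECs and livers. In the Smad4 set it spanned 2.83, below the range of 4 set for fitting, and no *Xist* covariate was fitted there.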
